A study of Homo sapiens with 4 samples.

Results

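Chromatin accessibility was described at 8 genes of the SOX family, SOX2, SOX4, SOX5, SOX6, SOX8, SOX9, SOX10 and SOX11, in control and SNHG1-depleted SK-N-BE(2)C cells. The regions taken were all ATAC-seq peaks within 3 kb of a transcription start site (TSS) of any transcript of these genes, and all peaks in the gene bodies and within 100 kb on either side. They comprised 43 of 47610 control peaks and 48 of 42682 sgSNHG1 peaks, over windows of 3.45 Mb in total. The rule used gene positions only and no measured value. In GENCODE version 44 on GRCh38 the genes were annotated as SOX2 at chr3:181711925-181714436 (plus strand), SOX4 at chr6:21593751-21598619 (plus strand), SOX11 at chr2:5692384-5701385 (plus strand), SOX5 at chr12:23529504-24562544 (minus strand), SOX6 at chr11:15966449-16739591 (minus strand), SOX8 at chr16:981770-986979 (plus strand), SOX9 at chr17:72121020-72126416 (plus strand) and SOX10 at chr22:37970686-37987422 (minus strand).

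SK-N-BE(2)C is an established MYCN-amplified neuroblastoma cell line. All cells were exposed to a Cas9 construct, puromycin selection and sorting of single cells into clones. The control group (genotype wildtype, n = 2 replicates) carried a non-targeting guide RNA, and the sgSNHG1 group (genotype SNHG1 knockout, n = 2 replicates) carried a pair of guide RNAs against SNHG1, a long non-coding RNA that also hosts small nucleolar RNAs. Knockout is the label's word, and the paper reports that SNHG1 was repressed but not completely removed. Which clone gave each replicate is not given in the sources used here, so that clone and knockout cannot be told apart. The authors combined the replicates of a group before calling peaks, so 1 peak list stood for each condition, there was no spread between replicates, and no test between conditions was made.

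SOX proteins bind DNA through an HMG box that bends the minor groove at short cores such as ACAATG and ACAAAG. SoxB1 factors such as SOX2 hold neural progenitors undifferentiated, SoxC factors (SOX4 and SOX11) act in immature neurons and are expressed in neuroblastoma, SoxD factors (SOX5 and SOX6) have no transactivation domain and modulate other SOX proteins, and SoxE factors (SOX8, SOX9 and SOX10) act in neural crest and its glial, melanocyte and cartilage lineages.

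The accessible promoters around which the results turn are shown first. For SOX2, SOX4 and SOX11, whose promoter peaks reached the TSS outside annotated untranslated regions, the 120 bases before the TSS are given from GRCh38, plus strand, which is also the strand of each gene. Capitals mark the CCAAT box, a promoter element bound by the NF-Y complex, on either strand (CCAAT or ATTGG). This element was chosen after the sequences were seen.
SOX2 promoter, chr3:181711805-181711924: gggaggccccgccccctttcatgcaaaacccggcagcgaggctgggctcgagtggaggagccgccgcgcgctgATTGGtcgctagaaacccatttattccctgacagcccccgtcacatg
SOX4 promoter, chr6:21593631-21593750: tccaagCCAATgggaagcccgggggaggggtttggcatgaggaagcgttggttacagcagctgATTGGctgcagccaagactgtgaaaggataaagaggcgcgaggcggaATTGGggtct
SOX11 promoter, chr2:5692264-5692383: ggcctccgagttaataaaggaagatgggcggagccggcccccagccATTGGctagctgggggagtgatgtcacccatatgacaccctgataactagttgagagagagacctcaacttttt
All 3 stretches held a CCAAT box, with 1 match each in SOX2 and SOX11 and 3 in SOX4. In SOX2 the match began at -47 bp from the TSS and covered the control summit. From 250 bp before to 50 bp after the TSS of the gene record, 5 of the 8 SOX genes held at least 1 CCAAT box, against 35.9% of 19970 protein-coding genes, and SOX4 was among the 3.70% with 3 or more. In the same stretch a SOX core (ACAATG or ACAAAG, either strand) was found in 3 of the 8 genes, SOX2, SOX5 and SOX6, against 21.3% of all protein-coding genes, and SOX5 held 2.

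The pileup of a peak is the number of fragments over its summit, the local background is the number MACS2 predicted there from the surrounding fragments, and the fold enrichment is the ratio of the former to the latter, each with 1 added. Dividing a pileup by the lowest background in its list (2.20 fragments in control, 1.72 in sgSNHG1) gave the scaled pileup. Differences are given as the log2 ratio of sgSNHG1 over control fold enrichment with its counting standard error (SE), which comes from the 2 pileups alone and holds no variation between replicates. In bulk chromatin, fewer cells with an open site and a less open site per cell cannot be told apart. At SNHG1 itself, control cells had a promoter fold enrichment of 5.71 and sgSNHG1 cells of 6.04 (log2 ratio 0.08, SE 0.37), which is no measure of its RNA. Of the marker genes of the labelled cell type, 8 of 9 adrenergic neuroblastoma genes had promoter peaks common to the lists and TH had none, against 1 of 5 Schwann cell genes, 2 of 5 melanocyte genes, 5 of 5 mesenchymal genes, 2 of 4 epithelial genes and 0 of 3 blood cell genes. A promoter peak does not measure expression.

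Promoters of SOX2, SOX4, SOX6, SOX9 and SOX11 were accessible in both lists, SOX5 had promoter peaks in control alone, and SOX8 and SOX10 had none. A promoter peak in both lists was found for 63.7% of the 19970 protein-coding genes, in control alone for 6.07% and in sgSNHG1 alone for 1.98%. Of the 5 SOX genes with both values, 3 were lower and 2 higher in sgSNHG1, with a median log2 ratio of -0.18 against -0.07 over 12714 protein-coding genes, of which 60.4% were lower. No SOX promoter differed by more than 2 counting SE.

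**Figure D1:**
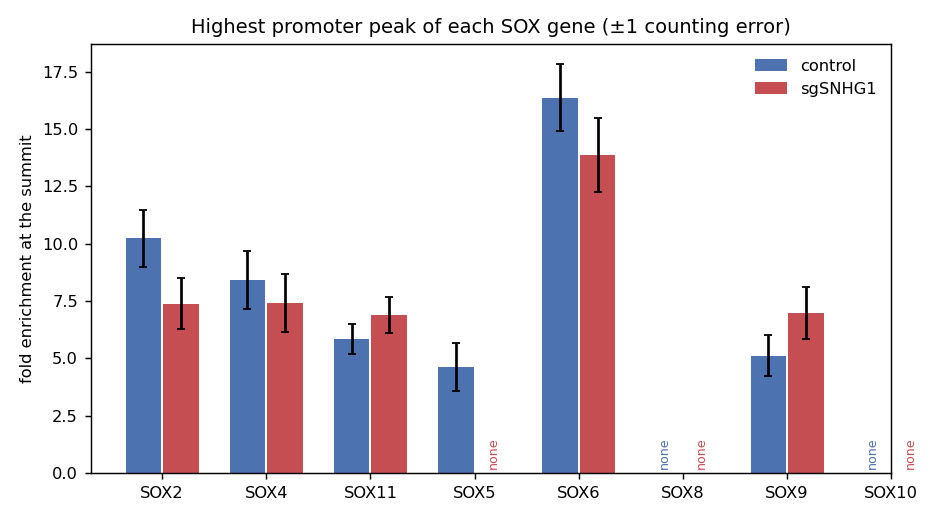
Fold enrichment at the summit of the highest promoter peak of each SOX gene (vertical axis, ratio) in the control and sgSNHG1 lists; error bars are 1 counting error of the pileup, and "none" marks a gene with no promoter peak in that list. SOX6 stands highest in both lists, SOX5 has a bar in control alone, and SOX8 and SOX10 have none.

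SOX2, the SoxB1 member and a pluripotency and neural progenitor factor, had the lowest ratio among these promoters. Its fold enrichment went from 10.2 in control (pileup 68) to 7.39 in sgSNHG1 (pileup 43), a log2 ratio of -0.47 (SE 0.28; 95% counting interval -1.02 to 0.08). The interval includes no difference, and on the scaled pileup the ratio was -0.30. The summit lay within an intron of the overlapping lncRNA gene SOX2-OT. The promoter peak narrowed from 546 bp to 278 bp, and 79.8% of all pairs were narrower in sgSNHG1. Over the coding sequence of the only SOX2 exon, 2 further peaks were called in sgSNHG1 alone. Their summits lay at 667 bp and 1095 bp from the TSS, with fold enrichments of 3.11 and 4.06. The stronger of these is shown because it is the most significant peak of the SOX2 window in sgSNHG1 alone, with no SOX core within the bases printed (GRCh38, plus strand, chr3:181712945-181713095).
SOX2 coding exon peak: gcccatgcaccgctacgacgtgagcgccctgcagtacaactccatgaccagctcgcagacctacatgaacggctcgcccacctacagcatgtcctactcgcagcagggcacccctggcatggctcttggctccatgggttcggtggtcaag
Its pileup of 24 would correspond to 30.8 fragments in control at an equal scaled level, where 19 were needed for a call. For the peak at 667 bp the corresponding values were 23.1 and 18. Scaling to the deeper control list raises every sgSNHG1 pileup. Here and below, such an excess was therefore close to fixed in advance for peaks of sgSNHG1 alone and says little about control.

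In the rest of the SOX2 window, a peak 40473 bp downstream within SOX2-OT was shared, with fold enrichments of 7.66 and 8.06 (log2 ratio 0.07, SE 0.35). A peak at -11313 bp from the TSS was present in control alone (fold enrichment 6.14, pileup 28), and 2 peaks at -95027 bp and -19866 bp in sgSNHG1 alone (pileups 12 and 11). The control peak would correspond to 21.8 fragments in sgSNHG1, where 12 were needed, whereas the 2 sgSNHG1 peaks lay close above what control could show (15.4 and 14.1 against 11). In the SOX2 window, 1 of 3 control and 4 of 6 sgSNHG1 peaks were in 1 list alone. The whole-list shares were 33.3% and 21.8%, and the counts are small.

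Both SoxC promoters differed by less than 2 counting SE between the lists. SOX4, a factor of immature neurons and of many tumours, had a fold enrichment of 8.41 in control (pileup 45) and 7.41 in sgSNHG1 (pileup 35), a log2 ratio of -0.18 (SE 0.33) that became -0.00 on the scaled pileup. SOX11, a SoxC factor of developing sympathetic neurons, had 5.83 in control (pileup 81) and 6.89 in sgSNHG1 (pileup 78), a log2 ratio of 0.24 (SE 0.23). The pileup at SOX11 was the larger of the pair in both lists, while its fold enrichment was the smaller. The local background at the SOX11 promoter was 5.92 times the genome background in control and 6.09 times in sgSNHG1, and only 0.723% and 0.808% of the peaks of each list had a higher one. The median background over the peaks of the 5 Mb on either side was 5.35 fragments in control and 4.18 in sgSNHG1, below the 13.1 and 10.5 fragments at the promoter. The part of copy number in this background was not tested.

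The promoter region of SOX11 was also the only one in the windows that was divided differently between the lists. In control it was a single peak of 1169 bp, which overlapped 3 peaks of 205 bp, 99 bp and 610 bp in sgSNHG1. Of the 31752 control peaks that overlapped any sgSNHG1 peak, 0.252% overlapped 3 or more, and of those of at least 1000 bp, 3.79% did. Around SOX11, another broad control peak of 1100 bp in the 3' untranslated region was shared (3.62 and 4.18; log2 ratio 0.21, SE 0.33). An intronic peak of LINC01248 at -18741 bp went from 5.39 in control (pileup 22) to 3.47 in sgSNHG1 (pileup 12), a log2 ratio of -0.63 that was within 2 counting SE (SE 0.52). Upstream, 3 peaks were called in sgSNHG1 alone, with pileups of 14 to 15, the most significant at -95456 bp with a fold enrichment of 3.99. They were 3 of the 8 sgSNHG1 peaks of the window, and 21.8% of all sgSNHG1 peaks were in that list alone. No control peak of the window was in control alone.

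Around SOX4, 3 of 5 control peaks and 1 of 3 sgSNHG1 peaks were in 1 list alone. Over the whole lists the shares were 33.3% and 21.8%, so the direction was that of the genome and the counts are small. The strongest control peak among them lay at -6440 bp (fold enrichment 4.83, pileup 23). Another lay at 70706 bp within CASC15, a lncRNA gene of a neuroblastoma susceptibility locus (fold enrichment 4.78, pileup 18). The sgSNHG1 peak lay over the pseudogene BOLA2P3, with a pileup of 10. The peak at -6440 bp corresponded to 17.9 fragments in sgSNHG1, where 12 were needed for a call.

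The SoxD genes are both very long, 1033 kb for SOX5 and 773 kb for SOX6, and differed from each other. SOX6 had the strongest promoter of the 8 genes. It reached 16.4 in control (pileup 125) and 13.9 in sgSNHG1 (pileup 73), percentiles 99.7 and 97.4 of protein-coding promoters, with a log2 ratio of -0.24 (SE 0.21). The summit lay in an untranslated exon, 1057 bp inside the gene record, and also within 3 kb of a TSS of the neighbouring C11orf58. Peaks on either side of an internal SOX6 start site were shared, with control summits 133224 bp and 134540 bp from the gene start. Their fold enrichments were 4.79 to 4.91 in control and 4.64 to 5.24 in sgSNHG1.

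SOX5, by contrast, lay in sparse territory. Its window held 3 control peaks in 1.23 Mb (2.43 per Mb), against 12.5 per Mb over the 8 windows and 15.7 per Mb over the genome. The control list had 2 promoter peaks, 576 bp and 1610 bp before the gene start, with fold enrichments of 3.87 and 4.62 (pileups 16 and 19), the higher of them at percentile 11.2 of protein-coding promoters. Neither had a counterpart in sgSNHG1. At an equal scaled level they would have held 12.5 and 14.8 fragments there, where 11 were needed for a call, so the depth allowed a call only by a small margin. An intronic peak near the 3' end was shared and nearly equal (6.87 and 7.36; log2 ratio 0.10, SE 0.46).

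Within the SOX5 introns, 5 peaks between 355720 bp and 516474 bp from the gene start were called in sgSNHG1 alone. Their pileups were 11 to 16 over the lowest possible background, and their fold enrichments 4.41 to 6.25. At an equal scaled level they would have held 14.1 to 20.5 fragments in control, where 10 were needed. That outcome was close to fixed in advance, since the scaling raises every sgSNHG1 pileup. These peaks were 5 of the 6 sgSNHG1 peaks of the SOX5 window. Of all sgSNHG1 peaks farther than 3 kb from any TSS, 30.2% were in that list alone. The strongest is shown with the SOX core, on the minus strand as CATTGT, in capitals (GRCh38, plus strand, chr12:24045997-24046145), and the core lay 24 bp from the summit.
SOX5 intronic peak: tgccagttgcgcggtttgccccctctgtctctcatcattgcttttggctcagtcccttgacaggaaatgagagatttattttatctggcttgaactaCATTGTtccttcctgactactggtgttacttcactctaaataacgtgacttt
Of these 5 peaks, 2 held a SOX core within 100 bp of the summit, against 23.2% of all sgSNHG1 peaks farther than 3 kb from any TSS. The peak shown held 2 cores in this range, 1 of them in the bases printed.

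The largest difference in the windows was at an intergenic site 81303 bp beyond the 3' end of SOX6. The control peak (GRCh38, chr11:15884616-15885146) had 48 fragments at its summit and a fold enrichment of 9.28, and the overlapping sgSNHG1 peak had 12 fragments and 3.40, with a -log10 q of 2.60 near the lowest of its list (2.01). The log2 ratio was -1.45 (SE 0.47; 95% counting interval -2.36 to -0.54), and -1.64 on the scaled pileup. Only 1 other of the 31663 pairs in the genome was as low. The site was 1 of 26 pairs inspected here and came from the tail of the genome-wide list, so that its rank is a description of these 2 lists. The bases around its control summit are shown because of this difference (GRCh38, plus strand, chr11:15884959-15885109), and no SOX core was found in them.
SOX6 3' distal peak: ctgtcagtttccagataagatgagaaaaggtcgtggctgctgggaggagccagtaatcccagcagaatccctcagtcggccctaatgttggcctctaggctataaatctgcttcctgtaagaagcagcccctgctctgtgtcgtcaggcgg
Unlike this shared site, the next peaks toward SOX6 were in the control list alone. A peak of ENSG00000289116 had a fold enrichment of 4.79 (pileup 20), and a peak in LINC02682 had 6.62 (pileup 30), which would correspond to 15.6 and 23.4 fragments in sgSNHG1 where 11 and 12 were needed. Over the pairs of the 5 Mb on either side of SOX6 the median log2 ratio was -0.04.

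The other single-list peaks of SOX6 fell on both sides. In all, 4 of 13 control and 3 of 12 sgSNHG1 peaks were in 1 list alone, near the whole-list 33.3% and 21.8%. Control alone had a further peak in PLEKHA7 (fold enrichment 6.02, pileup 26) and a SOX6 intronic peak of pileup 16. In sgSNHG1 alone, 2 SOX6 intronic peaks had pileups of 10 and 17, and a peak in a PLEKHA7 intron had 31 fragments and a fold enrichment of 7.13. The latter was 95 bp wide, close to the narrowest peak of the list at 92 bp, and would correspond to 39.7 fragments in control, where 15 were needed for a call.

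**Figure D2:**
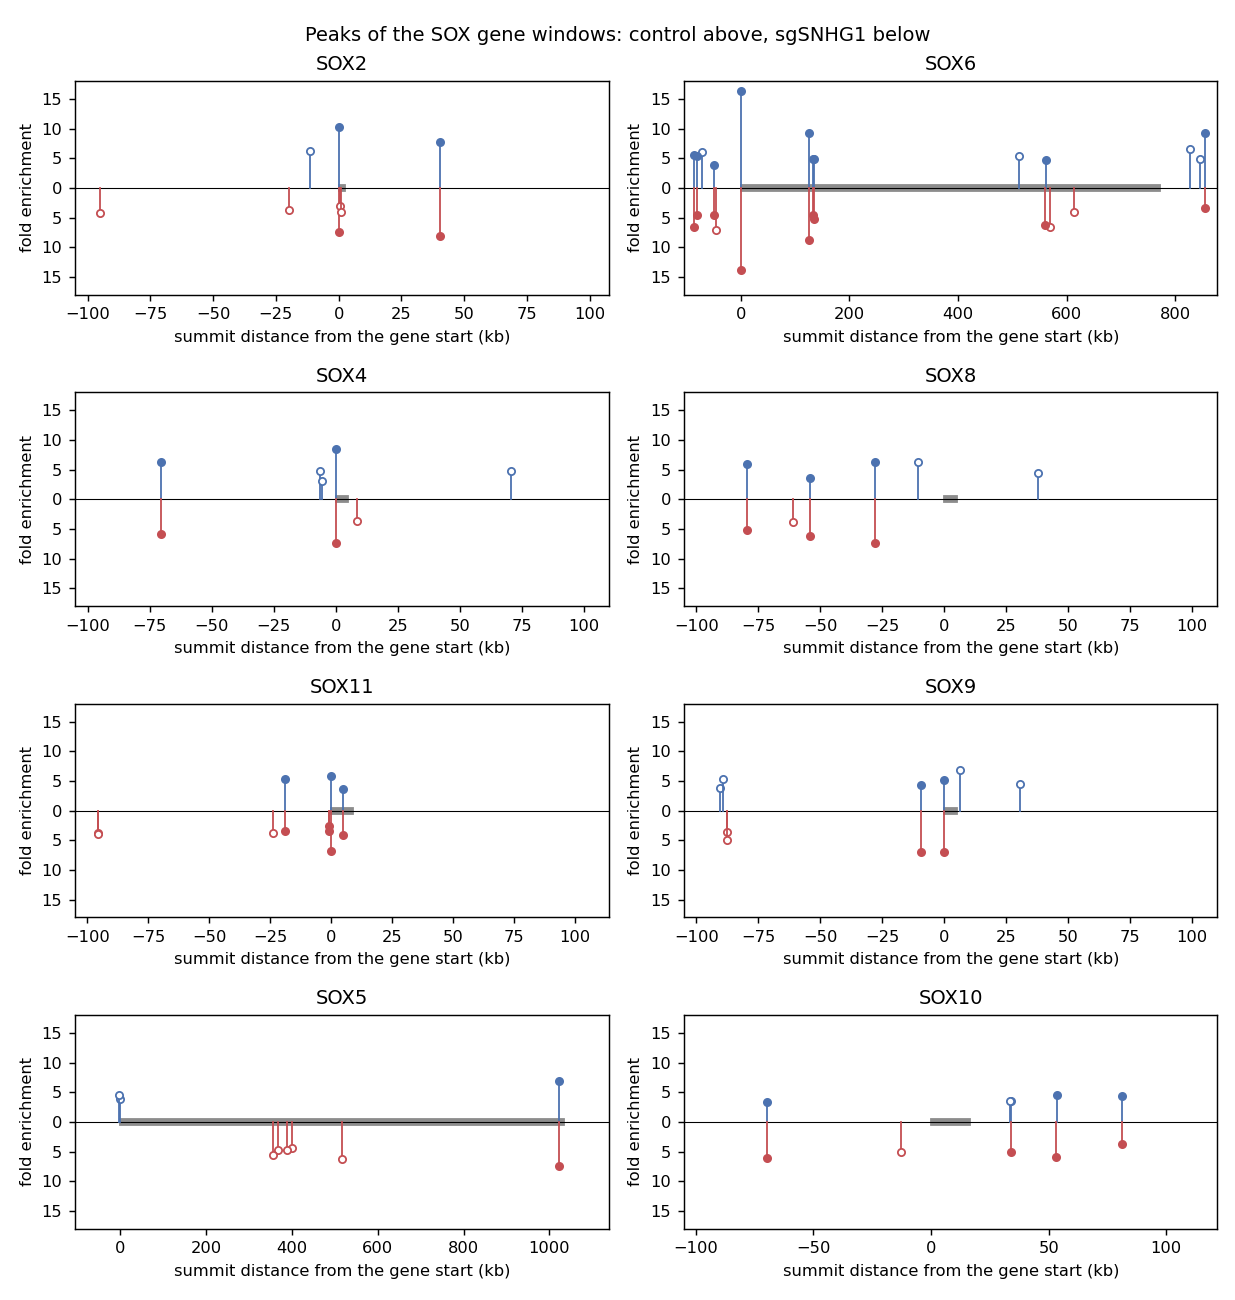
Peaks in the window of each SOX gene, plotted by the distance of the summit from the gene start in the direction of transcription (kb; horizontal scales differ) and by fold enrichment (vertical axis, ratio), control above and sgSNHG1 below the line. Filled circles are peaks that overlap a peak of the other list, open circles peaks of 1 list alone, and the grey bar is the gene. SOX5 shows open sgSNHG1 circles within the gene, SOX6 a cluster beyond its 3' end that is high in control, and SOX8 and SOX10 no peak at their starts.

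Shared peaks around the SoxE genes mostly had higher fold enrichments in sgSNHG1, each within 2 counting SE. SOX9, the factor of neural crest and cartilage, had a promoter fold enrichment of 5.12 in control (pileup 32) and 6.98 in sgSNHG1 (pileup 39), a log2 ratio of 0.45 (SE 0.34; 95% counting interval -0.23 to 1.12), while the peak narrowed from 842 bp to 354 bp. The interval includes no difference, and 79.8% of all pairs were narrower in sgSNHG1. A peak near a start of SOX9-AS1, an antisense lncRNA gene whose introns also hold the SOX9 promoter, at -9460 bp from the SOX9 TSS, had 4.34 in control (pileup 19) and 7.01 in sgSNHG1 (pileup 27), with a log2 ratio of 0.69 (SE 0.43).

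The single-list peaks of SOX9 were 4 of 6 in control and 2 of 4 in sgSNHG1, against 33.3% and 21.8% of the whole lists. The strongest was a control peak 672 bp beyond the 3' end of SOX9, with 29 fragments and a fold enrichment of 6.80, which would correspond to 22.6 fragments in sgSNHG1 where 11 were needed. It is shown for this reason (GRCh38, plus strand, chr17:72127249-72127399), with the SOX core, again as CATTGT, in capitals.
SOX9 3' control peak: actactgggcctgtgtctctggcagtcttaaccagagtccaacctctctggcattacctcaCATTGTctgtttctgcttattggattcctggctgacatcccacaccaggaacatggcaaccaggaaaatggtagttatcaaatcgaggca
Near the lncRNA genes ROCR and LINC01152, at -90493 bp to -87501 bp from the SOX9 TSS, control had 2 peaks (pileups 17 and 25) and sgSNHG1 had 2 others (pileups 13 and 18) within 3 kb of them that did not overlap.

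SOX8 and SOX10, which share roles in glia and neural crest, had no promoter peak in either list, which allows only that fewer fragments lay there than a call required. The smallest pileup of any listed peak was 10 in control and 9 in sgSNHG1. Their windows nevertheless held shared peaks at other genes. In the SOX8 window an intronic peak of LMF1, a lipase maturation factor gene, had 3.58 in control (pileup 12) and 6.26 in sgSNHG1 (pileup 23), a log2 ratio of 0.81 (SE 0.51), and the strongest peak of control alone was at an LMF1 start (fold enrichment 6.21, pileup 30). That of sgSNHG1 alone was near a start of LMF1-AS1 (fold enrichment 3.84, pileup 14). In the SOX10 window the promoter peak of PICK1, a PDZ-domain protein gene, had 3.40 in control (pileup 14) and 6.07 in sgSNHG1 (pileup 24), a log2 ratio of 0.84 (SE 0.49). The peak nearest before the SOX10 start, at -12738 bp in a POLR2F intron, was in sgSNHG1 alone (fold enrichment 5.12, pileup 22) and would correspond to 28.2 fragments in control, where 15 were needed. Control alone had 1 peak, in POLR2F, an RNA polymerase subunit gene (fold enrichment 3.56, pileup 12). Single-list peaks were 2 of 5 in control and 1 of 4 in sgSNHG1 at SOX8, and 1 of 5 in each list at SOX10. The whole-list shares were 33.3% and 21.8%.

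Pairs are named here by the window they lie in. Of the 9 SoxE pairs, 7 were higher in sgSNHG1, with a median log2 ratio of 0.45, against 44.4% higher over all pairs. Only 1 of the 9 was at a SOX promoter, that of SOX9. Those of the SOX8 and SOX10 windows lay at other genes, and the SOX10 window holds 7 other protein-coding genes. The values therefore describe the windows, and a link of these peaks to the SoxE genes was not tested. The median log2 ratio was -0.09 over 5 SoxC pairs and 0.02 over 10 SoxD pairs, and 1 of 2 SoxB pairs was higher. The median background of the SoxE pairs relative to the genome background also differed, by 0.16 on the log2 scale, and on the scaled pileup, which leaves the local background out, the median was 0.64. In the 5 Mb on either side of SOX8, SOX9 and SOX10 the median log2 ratios were -0.07, -0.11 and -0.06. Pairs of one window share a stretch of genome and are not replicates of a condition, and none of the 9 was higher by more than 2 counting SE in fold enrichment.

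Over the 26 pairs of all windows, 11 were lower and 15 higher, with a median log2 ratio of 0.10 against -0.05 over all 31663 pairs. A ratio of -0.5 or below was found in 2 pairs, at SOX6 and SOX11, against 9.06% of all pairs, and of 0.5 or above in 3 pairs, at SOX8, SOX9 and SOX10, against 5.37%. Past 2 counting SE, 1 pair was lower (the SOX6 3' site) against 1.55% of all pairs, and 0 were higher against 1.13%. With the scaled pileup, 1 pair was lower past this limit against 4.63%, and the 3 SoxE pairs named above were higher against 2.97%. The typical counting error was large, with a median SE of 0.46 in the windows and 0.40 over all pairs, so that a log2 ratio under 0.92, or 2 median SE, was not detectable at this depth for a typical SOX pair. In width, 18 of the 26 sgSNHG1 peaks were narrower than their control counterparts (69.2%, all pairs 79.8%).

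**Figure D3:**
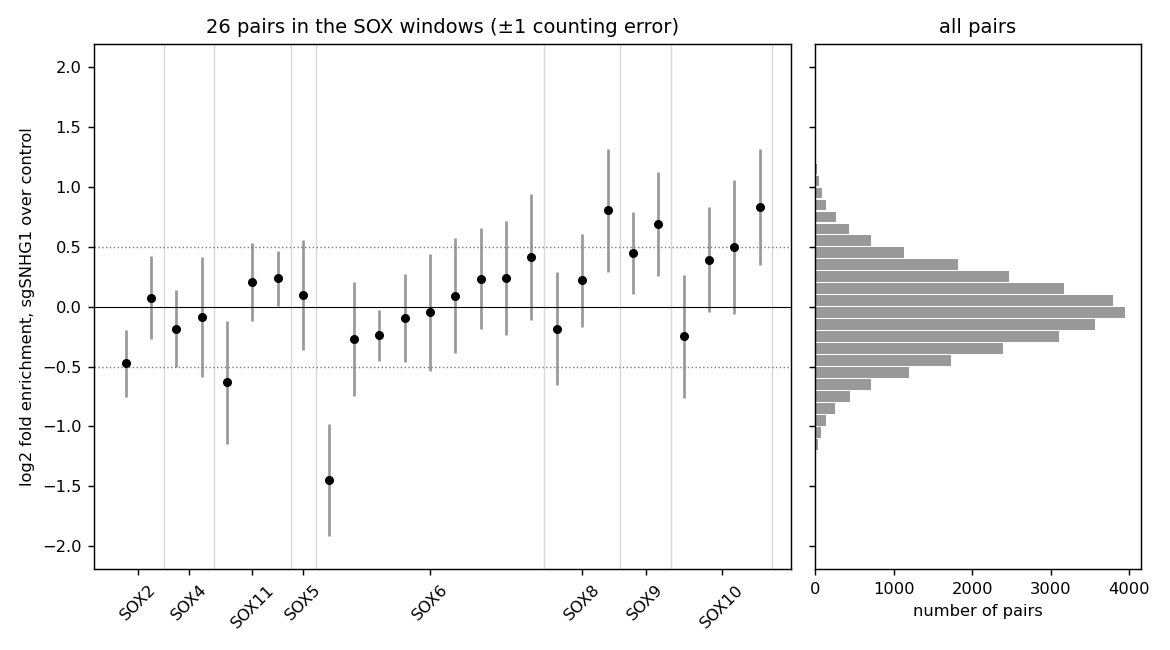
Log2 ratio of sgSNHG1 over control fold enrichment for the 26 overlapping pairs of the SOX windows, grouped by gene and ordered by value (left; bars are 1 counting SE, dotted lines mark ratios of 0.5 in size), beside the distribution of the ratio over all 31663 pairs (right, number of pairs). The SOX6 3' site at -1.45 stands below the others, and 7 of the 9 SOX8, SOX9 and SOX10 points lie above 0.

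Peaks present in 1 list alone were counted next. In control they were 17 of 43 (39.5%, 95% Wilson interval 26.4 to 54.4) against 33.3% of all control peaks, and in sgSNHG1 20 of 48 (41.7%, interval 28.8 to 55.7) against 21.8% of all sgSNHG1 peaks. The sgSNHG1 share thus exceeded its background, and 5 of its 20 peaks were those in the SOX5 introns. Without the SOX5 window the share was 15 of 42 (35.7%, interval 22.99 to 50.8). These intervals cover counting error only. Peaks of the windows were also weaker than those of the whole lists. Their median pileup was 16.5 against 20 in sgSNHG1 and 21 against 24 in control. The part of this in the single-list shares was not tested.

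The shares were also taken by distance from gene starts. Among peaks farther than 3 kb from any TSS, 14 of 23 sgSNHG1 peaks were in that list alone (60.9%, interval 40.8 to 77.8; background 30.2%), and 6 of 15 control peaks (40.0%, interval 19.8 to 64.3; background 41.0%). Without the SOX5 window the sgSNHG1 count was 9 of 17. Within 3 kb of the TSS of any gene, 11 of 28 control peaks (39.3%, interval 23.6 to 57.6; background 24.2%) and 6 of 25 sgSNHG1 peaks (24.0%, interval 11.5 to 43.4; background 12.5%) were in 1 list alone. Both of these intervals include the background. At the SOX promoters the counts were 2 of 9 in control and 2 of 11 in sgSNHG1, those of SOX5 and of the SOX2 exon. At the promoters of other genes they were 9 of 19 (47.4%, interval 27.3 to 68.3) and 4 of 14 (28.6%, interval 11.7 to 54.6). The control interval there lay above the background of 24.2%, and the sgSNHG1 interval included its background of 12.5%. These are subsets among several, and the intervals cover counting error only.

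Single-list peaks in the windows were weaker by median than shared ones. Their median -log10 q was 7.01 in control and 4.09 in sgSNHG1, against 9.65 and 10.5 for shared peaks. Over all single-list peaks of each list the medians were 5.36 and 4.74. At an equal scaled level, 15 of 17 control peaks and 20 of 20 sgSNHG1 peaks would have been callable in the other list. Only 6 and 9 would have held 1.5 times the pileup required there. All of these peaks had passed calling in their own list, and scaling to the deeper control list raises every sgSNHG1 pileup. The count of 20 was therefore close to fixed in advance and says little about these loci. No such counts over all single-list peaks are given here.

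**Figure D4:**
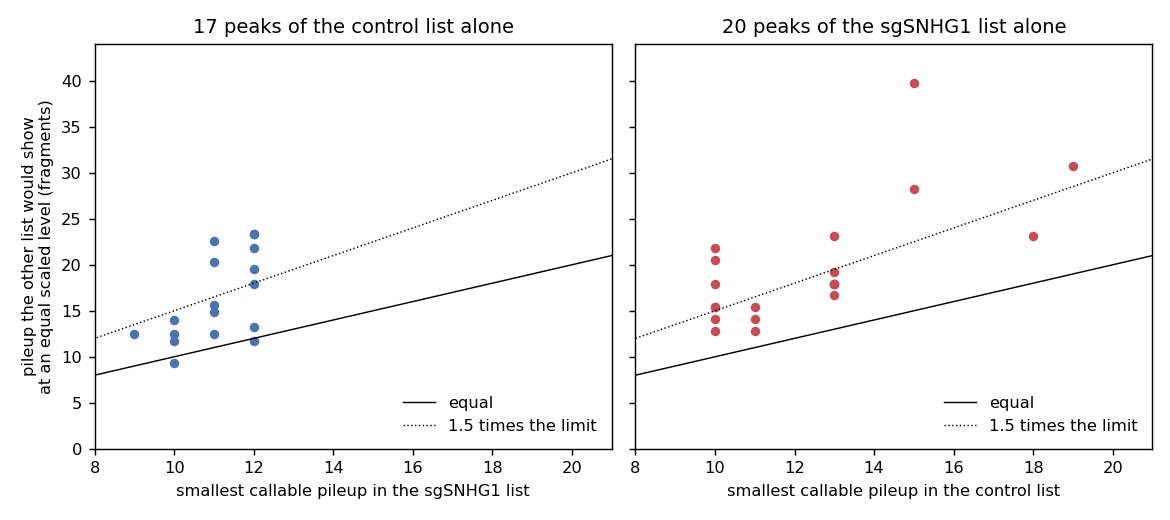
For each peak of the SOX windows present in 1 list alone, the pileup the other list would show at an equal scaled level (vertical axis, fragments) against the smallest pileup that would be called there (horizontal axis, fragments), for 17 control peaks (left) and 20 sgSNHG1 peaks (right). The solid line marks equality and the dotted line 1.5 times the limit; 6 control and 9 sgSNHG1 peaks lie on or above the dotted line.

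The sequence under the peaks showed no surplus of SOX cores beyond counting error. Within 100 bp of the summit a SOX core was present in 10 of 43 control peaks (23.3%, interval 13.2 to 37.7) against 18.1% of all control peaks, and in 10 of 48 sgSNHG1 peaks (20.8%, interval 11.7 to 34.3) against 18.4%. E-boxes of the types CATCTG and CAGCTG, bound by neuronal and neural crest bHLH factors, were present in 32.6% and 43.8% of the peaks against 37.2% and 38.8%. Among peaks farther than 3 kb from any TSS, an E-box was present in 2 of 15 control peaks (13.3%, interval 3.74 to 37.9) against 45.3% of all such control peaks, and in 9 of 23 sgSNHG1 peaks (39.1%, interval 22.2 to 59.2) against 49.1%. The AP-1 site TGACTCA was found in 2 control peaks (4.65%, all control peaks 4.70%) and 1 sgSNHG1 peak (2.08%, all sgSNHG1 peaks 5.64%). The median GC content was 59.2% in control and 57.0% in sgSNHG1, against 55.7% over either list.

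Promoters of other SOX genes and of genes linked to SOX factors were described by lists. Of 11 other SOX genes, 5 had promoter peaks in both lists, SOX17 in control alone and SOX15 in sgSNHG1 alone, with a median log2 ratio of -0.20. Among them SOX21, a SoxB2 repressor, had 5.63 in control and 3.47 in sgSNHG1 (log2 ratio -0.70, SE 0.52). Of 13 neural crest specifiers, 11 had peaks in both lists and PAX3 in control alone (median -0.09), with the largest differences at SNAI1 (-0.37, SE 0.40), MSX1 (-0.31, SE 0.35) and SNAI2 (-0.28, SE 0.25), which encode repressors of the epithelial programme and a homeodomain factor.

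Of 11 neuronal genes linked to SoxC factors, 9 had peaks in both lists, and DCX, a microtubule-binding protein of migrating neurons, and TEAD2 in control alone (median -0.08). The largest differences were at INSM1 (6.19 and 3.69; -0.75, SE 0.49), NEUROG2 (5.65 and 4.01; -0.49, SE 0.49) and POU3F2 (7.66 and 5.48; -0.48, SE 0.36), which all encode transcription factors of neuronal differentiation. Of 10 glial genes linked to SOX10, 4 had peaks in both lists (median -0.19), with POU3F1, a Schwann cell factor, at -0.75 (SE 0.46).

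Of 7 melanocyte genes, MITF and PMEL had peaks in both lists (-0.06 and 0.08) and KIT in control alone. Of 7 cartilage genes, 4 had peaks in both lists (median -0.08), with HAPLN1, a matrix link protein, at -0.71 (SE 0.59). None of the genes in these lists passed 2 counting SE in fold enrichment, and on the scaled pileup POU3F2 did (-0.76, SE 0.36). The medians of these 6 lists lay between -0.20 and 0.01, beside -0.07 for all protein-coding genes. The adrenergic neuroblastoma markers, the cells' own type, had a lower median of -0.33, and -0.51 on the scaled pileup. Of these, 6 of 8 were lower in fold enrichment, beside 60.4% of all protein-coding genes. GATA3 (0.44, SE 0.33) and DDC (0.28, SE 0.24) were higher. None of the 8 passed 2 counting SE in fold enrichment, and on the scaled pileup GATA2 did (-0.76, SE 0.36). The epithelial markers EPCAM and CDH1 were both higher (median 0.28), each within 2 counting SE, and KRT8 and KRT18 had no promoter peak. The part of these shifts in the SOX values was not tested.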

How the data were processed

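ATAC-seq was analysed from 2 deposited peak lists, 1 per group, each made by the authors from 2 combined replicates. Per the labels and the study's methods, reads were trimmed with cutadapt, aligned to GRCh38 with BWA, filtered with Picard and GATK, shifted with deepTools and called with MACS2 in paired-end mode. Versions and the calling threshold are not given in the sources used here. The deposited values of each peak are a fold enrichment (a ratio of pileup to local background), a -log10 p, a -log10 q (at least 2.00 in control and 2.01 in sgSNHG1) and a score made from the -log10 q. Combining replicates hides peaks that rest on 1 library, and removal of duplicates lowers the deepest pileups.

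Pileups and backgrounds were solved from fold enrichment and -log10 p, within 0.001 of the latter, for all but 1 control peak and all sgSNHG1 peaks (Python 3.11.15, scipy 1.17.1, pysam 0.24.0), after the procedure was tested on simulated data. Library totals are unknown, and the genome backgrounds of 2.20 and 1.72 fragments stand for depth. TSSs came from GENCODE version 44. Peaks overlapping by at least 1 bp were shared, and mutual best overlaps formed pairs. The pileup required for a call was the smallest that reached the lowest -log10 p of that list at the scaled background. The text names each gene's highest promoter peak, pairs past 0.5 in log2 ratio or past 2 SE, the most significant single-list peak per gene and list, and from each gene list the single-list genes and up to 3 largest ratios. A gene and a promoter sequence that these rules would include are not reported here. Other peaks named were chosen after their values were seen. The SOX genes, the gene lists and the choices were made with earlier results of these data known. Alternatives concerned the measure, the overlap, the significance limit, the window and the promoter definition. Peaks were the only measurement, and no expression data were used.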

Additional observations from a re-analysis of the deposited data

How the results depend on the processing

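No paired analysis was possible because the replicates of each group were combined before peaks were called, and for the same reason no replicate could be left out. Of 59 alternative values, 51 stayed within their counting error or within 1.5 times the count, 8 moved and 0 reversed a called value. The narrower promoter definitions and the best pair of promoter peaks picked the same peaks and returned identical values. Their share of the 51 therefore says nothing about stability. Few values were called at all, with 1 window pair past 2 counting SE, so the 0 carries little weight. The moved values were counts of peaks in the windows and shares of shared peaks. With a -log10 q of at least 10, 17 control and 16 sgSNHG1 peaks remained of 43 and 48, and with at least 5, 31 sgSNHG1 peaks. Away from any TSS there were 15 control and 23 sgSNHG1 peaks. The shared part, 60.5% of control and 58.3% of sgSNHG1 peaks, was 41.9% and 37.5% when peaks had to cover 50% of each other, and 39.1% of sgSNHG1 peaks away from any TSS. The log2 ratio of sgSNHG1 over control peak numbers in the windows was 0.16, and it changed sign to -0.18 and -0.09 with a -log10 q of at least 5 and 10, so its direction is not fixed. The omission of the SOX5 window and the scaled pileup for SoxE pairs were chosen after seeing the data. The depth limits the comparison to the counting errors given with each value.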
